A study of Mus musculus with 12 samples.

Results

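The sites described here were the CTCF peaks that flank the alpha-globin and beta-globin genes of the mouse. A peak was taken when its summit lay within 100 kb of the span of Hbb-y, Hbb-bh1, Hbb-bs and Hbb-bt on chromosome 7 or of Hba-x, Hba-a1 and Hba-a2 on chromosome 11. Of the 183882 peak regions in the 6 peak lists, 84 met this rule, 11 at the beta-globin locus and 73 at the alpha-globin locus. Overlapping peaks from different lists merged into 23 sites, 4 beta-globin and 19 alpha-globin.

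CTCF ChIP-seq was performed on brain, heart and lung tissue of mouse embryos at E18.5, shortly before birth, on the C57BL/6 background, given as C57BL/6 N in the study's methods. The embryos were either wild type or homozygous for R567W, a single amino acid change in CTCF introduced with CRISPR/Cas9 and carried by every cell of the mutant. All groups shared the same antibody target and the same spike-in of chromatin from the human kidney line HEK293T. Each organ and genotype gave 1 ChIP library, so no difference within an organ had a replicate check. The number of embryos behind a library and the sex of the embryos were not given in the sources used here. A bulk organ mixes cell types, and a site bound in fewer cells cannot be told apart from a site bound less strongly in each cell. Peak lists hold no expression values, so the organ labels and the share of blood cells in each organ could not be checked against marker genes.

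CTCF reads a core DNA motif with its central zinc fingers and, at some sites, an additional upstream motif with its C-terminal fingers. It blocks contact between enhancers and promoters and halts cohesin, which extrudes chromatin loops, and a pair of CTCF motifs that point toward each other commonly marks the ends of a loop. The beta-globin genes lie among olfactory receptor genes, with CTCF sites on either side of the genes and their locus control region. The alpha-globin genes lie beside Nprl3, whose introns hold their enhancers, and CTCF sites surround both. Hbb-y, Hbb-bh1 and Hba-x encode embryonic globins, whereas Hbb-bs, Hbb-bt, Hba-a1 and Hba-a2 encode adult globins. They are known for their expression in red blood cell precursors, which none of the libraries was purified for.

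On GRCm38 the beta-globin span was chr7:103812524-103853216, with all 4 genes on the minus strand and Hbb-y at the 5′ end. The alpha-globin span was chr11:32276400-32297298, with all 3 genes on the plus strand and Hba-x at the 5′ end. Below, 5′ and 3′ follow the direction of transcription of the globin genes, and each site is named by a distance of its summit. For beta-globin sites this is the distance from the nearer end of the span. For alpha-globin sites it is the distance from the Hba-x start, on either side. No peak in any list overlapped the body of any of the 7 globin genes.

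The sequences at the 4 beta-globin sites are shown first, because this locus has so few sites. Capitals mark the 19-base core motif, and the 30 bases before them are the sequence in which the upstream motif was sought. All 4 cores lie on the minus strand, the strand of the globin genes, so that the 3 sites at the 5′ side point toward the genes and the site at the 3′ side points away from them.
5.45 kb 3′ of Hbb-bt, chr7:103807070-103807118: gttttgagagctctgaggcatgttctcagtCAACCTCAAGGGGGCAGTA
20.04 kb 5′ of Hbb-y, chr7:103873261-103873309: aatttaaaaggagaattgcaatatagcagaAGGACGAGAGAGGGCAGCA
60.0 kb 5′ of Hbb-y, chr7:103913176-103913224: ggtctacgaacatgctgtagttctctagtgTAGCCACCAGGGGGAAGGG
89.7 kb 5′ of Hbb-y, chr7:103942939-103942987: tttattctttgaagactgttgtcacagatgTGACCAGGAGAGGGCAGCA

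At the alpha-globin locus the same 49 bases are given for the 6 sites with a peak in every list and for the nearest site 5′ of Hba-x.
93.7 kb 5′ of Hba-x, chr11:32182665-32182713, plus strand: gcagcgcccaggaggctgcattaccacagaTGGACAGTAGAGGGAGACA
59.4 kb 5′ of Hba-x, chr11:32216999-32217047, plus strand: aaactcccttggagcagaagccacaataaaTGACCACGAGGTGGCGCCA
37.7 kb 5′ of Hba-x, chr11:32238653-32238701, minus strand: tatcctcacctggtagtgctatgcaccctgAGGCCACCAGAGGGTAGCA
8.995 kb 5′ of Hba-x, chr11:32267372-32267420, plus strand: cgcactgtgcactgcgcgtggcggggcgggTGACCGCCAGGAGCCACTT
10.5 kb 3′ of the Hba-x start, chr11:32286930-32286978, minus strand: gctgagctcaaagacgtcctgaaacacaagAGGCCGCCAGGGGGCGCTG
23.7 kb 3′ of the Hba-x start, chr11:32300035-32300083, minus strand: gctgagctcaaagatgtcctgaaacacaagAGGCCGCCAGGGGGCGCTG
48.4 kb 3′ of the Hba-x start, chr11:32324838-32324886, minus strand: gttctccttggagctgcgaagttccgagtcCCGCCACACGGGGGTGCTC

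A further 3 alpha-globin sites, chosen after their values were seen because their lung pileup ratio lay below the list-wide median beyond counting error, carried these sequences. Their fold enrichment was higher in mutant lung, as described with their values.
45.0 kb 3′ of the Hba-x start, chr11:32321391-32321439, minus strand: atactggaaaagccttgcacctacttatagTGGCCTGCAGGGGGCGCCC
64.9 kb 3′ of the Hba-x start, chr11:32341290-32341338, minus strand: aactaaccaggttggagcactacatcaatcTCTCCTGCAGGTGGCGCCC
66.6 kb 3′ of the Hba-x start, chr11:32342909-32342957, plus strand: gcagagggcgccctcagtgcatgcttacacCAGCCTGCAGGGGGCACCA

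The first comparison asked how many CTCF peaks each organ held around the globin genes in each genotype. The beta-globin window held 3 peaks in wild-type brain and 1 in mutant brain, 1 in wild-type heart and 0 in mutant heart, and 4 in wild-type lung and 2 in mutant lung. The alpha-globin window held 15 peaks in wild-type brain and 12 in mutant brain, 11 in wild-type heart and 6 in mutant heart, and 15 in wild-type lung and 14 in mutant lung. Peaks were thus fewer in the mutant in all 3 organs at both loci in this window. Within 50 kb of the spans, wild-type and mutant lung each held 9 alpha-globin peaks. The complete lists went from 36034 to 38390 peaks in brain, from 21059 to 11515 in heart and from 44386 to 32498 in lung, so the list was shorter in the mutant in heart and lung as well. When both lists of an organ were brought to equal length by q-value, this no longer held in lung at the alpha-globin locus, with 13 wild-type and 14 mutant peaks, nor in heart at the beta-globin locus, with 0 in each.

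The mean difference over the 3 organs, mutant minus wild type, was −1.67 ± 0.577 peaks (SD, n = 3 organs) at the beta-globin locus, with p = 0.25 when the signs of the organs were flipped in an exact permutation test (two-sided). At the alpha-globin locus it was −3 ± 2 peaks (SD, n = 3 organs), with p = 0.25 by the same exact permutation test. With 3 organs, 0.25 is the smallest p this test can give, so neither difference could pass 0.05. Both means were −1.33 with lists of equal length, and the beta-globin mean was −1 within 50 kb.

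The alpha-globin region was densely bound and the beta-globin region was not. In wild-type brain, heart and lung there were 67.9, 49.8 and 67.9 peaks per Mb around the alpha-globin genes, against 13.2, 7.73 and 16.3 per Mb over the genome in the same lists. Around the beta-globin genes the densities were 12.5, 4.15 and 16.6 per Mb. In the mutant the beta-globin densities were 4.15, 0 and 8.31 per Mb, and the alpha-globin densities 54.3, 27.2 and 63.4 per Mb, against 14.1, 4.22 and 11.9 per Mb over the genome. Beta-globin density was below the genome's in all 3 mutant organs, where it rested on only 1, 0 and 2 peaks. In the wild type, with 3, 1 and 4 peaks, it was close to the genome's in brain and lung. These figures are descriptions with no test.

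The second comparison followed each wild-type peak into the mutant list of the same organ. Of the wild-type globin-locus peaks, 13 of 18 in brain overlapped a mutant peak by at least 1 bp (72.2%, 95% exact binomial interval 46.5% to 90.3%), 6 of 12 in heart (50%, 21.1% to 78.9%) and 14 of 19 in lung (73.7%, 48.8% to 90.9%). Over the complete lists the shares were 81.5% (brain), 50.6% (heart) and 67.0% (lung), and in each organ the interval of the globin share held that of the list. With lists of equal length the globin shares were 72.2% (brain), 75% (heart) and 82.4% (lung). The shares over all peaks of lists so cut are not given here, and those of the complete lists are not a like comparison. All intervals given here cover counting error only.

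By locus and summed over organs, 5 of 8 wild-type beta-globin peaks and 11 of 41 wild-type alpha-globin peaks had no mutant peak over them. At the alpha-globin locus 12 of 15 peaks were overlapped in brain (80%, 51.9% to 95.7%), 6 of 11 in heart (54.5%, 23.4% to 83.3%) and 12 of 15 in lung. At the beta-globin locus 1 of 3, 0 of 1 and 2 of 4 were overlapped. Over the complete lists 81.5% (brain), 50.6% (heart) and 67.0% (lung) of wild-type peaks were overlapped. At either locus the exact interval of each organ held the share of its list, and the pooled counts mix organs whose lists differ in this share. The counts are too few to compare the loci, and peaks at the same site in different organs are not independent.

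Peaks found in the mutant alone were counted in the same way. None of the 13 mutant peaks in brain and none of the 6 in heart lacked a wild-type peak, whereas 24.5% of all mutant brain peaks and 7.12% of all mutant heart peaks did. In lung, 2 of 16 mutant globin-locus peaks lacked one, against 9.11% of the list. All 13 brain peaks were overlapped (100%, 75.3% to 100%), an interval that held the share of the list, so no organ showed fewer mutant-only peaks than its list beyond counting error. The 2 in lung lay 5′ of the alpha-globin genes and were weak, with summit pileups of 9 and 10 reads where the lowest pileup in that list was 7. The first lay 54.3 kb 5′ of Hba-x in an intron of Rhbdf1, and the second was the site 8.995 kb 5′ of Hba-x, 142 bp from the start of Nprl3.

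The pileup used from here on is the number of ChIP reads stacked at the summit, recovered from the peak caller's values. A ratio between genotypes divides each pileup by the lowest local background of its list and is given as mutant over wild type with a 95% exact conditional binomial interval. The list-wide median of this ratio at peaks shared by both genotypes was 0.983 (brain), 0.838 (heart) and 0.785 (lung), so each site is also given relative to that median.

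Each of the 4 beta-globin sites was intergenic. The site nearest to the genes, 5.45 kb 3′ of Hbb-bt, was the only beta-globin site present in wild-type peaks of all 3 organs and the only one found in mutant brain. Its pileup was 23 reads in wild-type brain and 16 in mutant brain, 21 in wild-type heart with no peak in mutant heart, and 77 in wild-type lung and 23 in mutant lung. The authors' fold enrichment went from 8.88 to 5.63 in brain and from 25.4 to 9.90 in lung, and was 8.04 in wild-type heart. Wild-type lung stood above the other 4 values and each mutant value was below its wild-type counterpart. The ratio was 0.586 in brain (0.290 to 1.16), an interval that includes 1. In lung it was 0.320 (0.192 to 0.516), or 0.408 (0.244 to 0.657) relative to the lung list, and 6.51% of shared lung peaks had a lower ratio. In heart the missing peak was of a kind often lost, since 25.6% of wild-type heart peaks in the same pileup decile were shared.

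On the 5′ side the nearest site lay 20.04 kb from Hbb-y, in the stretch between Hbb-y and the olfactory receptor gene Olfr66. It gave peaks of 34 reads in wild-type brain and 33 reads in wild-type lung, with fold enrichments of 12.9 and 13.2, and no peak in the other 4 lists. Of wild-type peaks in the same pileup decile, 84.3% in brain and 51.0% in lung were shared with the mutant. The absence from mutant brain therefore occurred at a pileup where most peaks of the list were kept.

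The site 60.0 kb 5′ of Hbb-y was a peak in wild-type lung alone, with 35 reads and a fold enrichment of 8.23, and lay 6834 bp from the start of Olfr65. It was the only beta-globin site with an upstream motif call.

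The site 89.7 kb 5′ of Hbb-y, which lay 1492 bp from the start of Olfr633, had the highest pileups of the beta-globin locus. It reached 49 reads in wild-type brain with no peak in mutant brain, and 133 reads in wild-type lung against 29 in mutant lung. In wild-type brain 90.5% of peaks in the same pileup decile were shared. The lung ratio was 0.234 (0.151 to 0.351), or 0.298 (0.192 to 0.448) relative to the lung list, and 2.33% of shared lung peaks had a lower ratio. Neither heart list held a peak there.

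**Figure D1:**
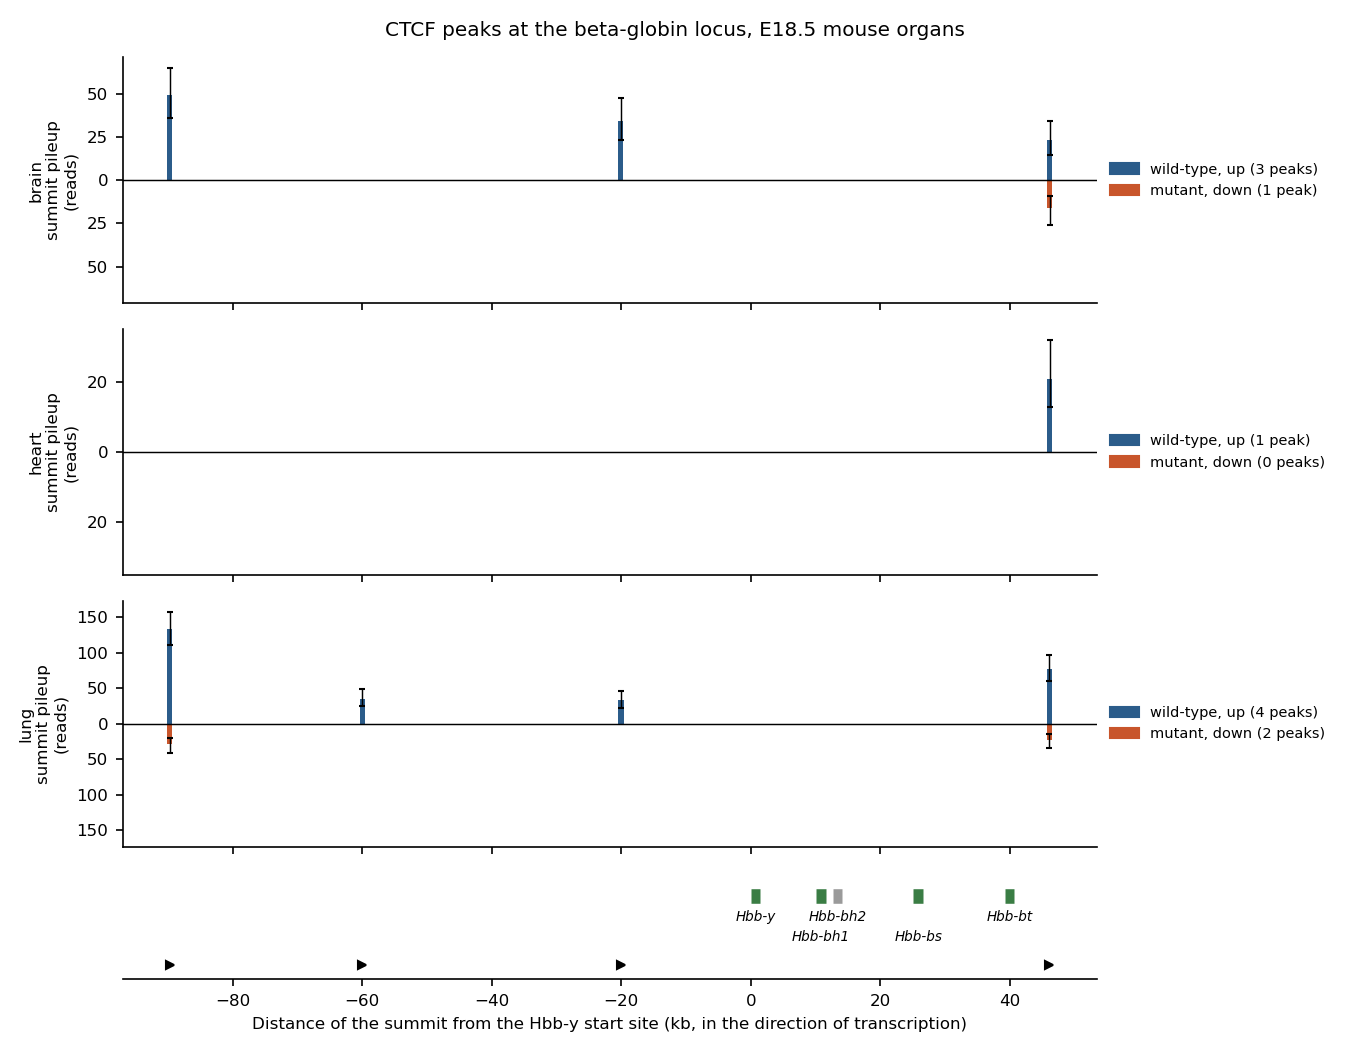
Summit pileup in reads at each beta-globin peak against distance from the Hbb-y start in kb, with wild-type bars up, mutant bars down and 95% exact Poisson intervals. Green boxes are the globin genes named by the rule, grey marks Hbb-bh2, and arrowheads give the direction of the core motif. Of 3, 1 and 4 wild-type peaks in brain, heart and lung, the mutant lists held 1, 0 and 2.

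The alpha-globin sites fell into a set found everywhere and a set that varied. A total of 6 sites had a peak in all 6 lists, all at the alpha-globin locus, and 3 of them lay 5′ of the genes, 1 inside the span and 2 on the 3′ side. All of them had a core motif call.

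The outermost 5′ site of this set, 93.7 kb from Hba-x and intergenic, had 115 reads in wild-type and 145 in mutant brain. Heart held 44 and 40 reads and lung 229 and 189. Ratios of pileup were 1.06 (0.826 to 1.37) in brain, 0.821 (0.521 to 1.29) in heart and 0.885 (0.726 to 1.08) in lung, so that every interval includes 1. Ratios of fold enrichment were 1.36 (brain), 0.824 (heart) and 5.21 (lung), so the direction turned in lung. The site 59.4 kb 5′ of Hba-x, in an intron of Rhbdf1, had 81 reads in wild-type against 125 in mutant brain. Heart held 30 and 28 reads and lung 139 and 122. Its core pointed toward the globin genes, as did that of the outermost site.

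The site 37.7 kb 5′ of Hba-x lay in an intron of Nprl3, the gene whose introns also hold the alpha-globin enhancers. It had the highest wild-type lung pileup of any globin-locus site, at 247 reads against 176 in mutant lung. Brain held 105 and 102 reads and heart 47 and 34 in wild type and mutant. Its core lay on the minus strand and pointed away from the globin genes. The ratio was 0.819 (0.617 to 1.09) in brain, 0.653 (0.407 to 1.04) in heart and 0.764 (0.626 to 0.931) in lung, an interval below 1 in lung alone. Relative to the list it was 0.833 (brain), 0.779 (heart) and 0.973 (lung), and each of these intervals includes 1. Fold enrichment gave ratios of 0.975 (brain), 0.864 (heart) and 5.18 (lung), so the direction turned in lung.

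Within the alpha-globin span, the site 10.5 kb 3′ of the Hba-x start lay 16 bp from the start of Hbq1b, a theta-globin gene between the adult alpha-globin genes. Its pileup was 90 reads in wild-type brain and 185 in mutant brain. Heart held 34 and 38 reads and lung 156 and 167. The mutant value was higher in all 3 organs. Fold enrichment in brain went from 33.7 to 61.6, a ratio of 1.83 that was below the 2.14 of the site 59.4 kb 5′ of Hba-x, and in lung its ratio of 3.81 was below the 5.21, 5.18 and 5.80 of the sites 93.7 kb 5′, 37.7 kb 5′ and 48.4 kb 3′. The ratio was 1.73 (1.34 to 2.25) in brain, where 91.6% of shared peaks had a lower ratio, 1.01 (0.618 to 1.65) in heart and 1.15 (0.917 to 1.44) in lung. Relative to the lists it was 1.76 (1.36 to 2.29) in brain and 1.46 (1.17 to 1.83) in lung.

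The near copy of this site, 23.7 kb 3′ of the Hba-x start and 15 bp from the start of the other theta-globin gene, Hbq1a, lay just beyond Hba-a2. It had 101 reads in wild-type against 124 in mutant brain. Heart held 27 and 31 reads and lung 160 and 136. The pileup ratios were close to 1, at 1.03 (brain), 1.04 (heart) and 0.911 (lung). Fold enrichment gave a lung ratio of 2.95, so the direction turned in lung. In brain and heart both measures were above 1. The cores of both sites were identical in 19 of 19 bases, the 49 bases shown above in 48, and 400 bases around them in 385 (96.2%). The authors kept uniquely mapped reads, and the effect of this filter at sequences so alike was not tested.

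The remaining site of this set, 48.4 kb 3′ of the Hba-x start, had 114 reads in wild-type against 123 in mutant brain. Heart held 44 and 33 reads and lung 179 and 162. Its core pointed back toward the globin genes. The pileup ratios of 0.909 (brain), 0.677 (heart) and 0.970 (lung) were all below 1, and each interval includes 1. Those of fold enrichment were 1.65 (brain), 0.811 (heart) and 5.80 (lung), so the direction turned in brain and lung.

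A second group of alpha-globin sites had peaks in both genotypes in brain and lung but in wild-type heart only. The site 45.0 kb 3′ of the Hba-x start had 58 reads in wild-type and 34 in mutant brain, 38 in wild-type heart with no mutant peak, and 161 and 49 reads in lung. The pileup was lower in the mutant in brain and lung, and in heart no mutant value was listed. In lung the fold enrichment was 17.4 in wild type and 20.6 in mutant, the opposite direction. The ratio of pileups was 0.494 (0.314 to 0.767) in brain and 0.326 (0.232 to 0.452) in lung, and 10.7% and 6.84% of shared peaks in those lists had a lower ratio. In heart 73.5% of wild-type peaks in its pileup decile were shared.

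The neighbouring pair of sites is given next. The site 64.9 kb 3′ of the Hba-x start had 52 reads in wild-type against 52 in mutant brain, 31 in wild-type heart, and 133 and 54 in lung, where the ratio was 0.435 (0.311 to 0.601). The site 66.6 kb 3′ of the start had 58 and 54 reads in brain, 11 in wild-type heart, and 125 and 31 in lung, where the ratio was 0.266 (0.173 to 0.397). On fold enrichment both sites were higher in mutant lung, by ratios of 2.05 and 1.25. At the 66.6 kb site the summits of the wild-type and mutant lung peaks were 106 bp apart, so they may not mark the same position. In heart 56.7% of wild-type peaks in the pileup decile of the 64.9 kb site were shared, and 9.26% in that of the 66.6 kb site. The organs were not tested against each other, since each had 1 library per genotype.

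On the 5′ side this group comprised the site 71.3 kb from Hba-x, 273 bp from the start of Snrnp25, and the site 39.2 kb from Hba-x in an Nprl3 intron. The former had 34 reads in wild-type against 35 in mutant brain, 19 in wild-type heart, and 54 and 29 in lung. The latter had 54 and 64 reads in brain, 21 in wild-type heart, and 135 and 93 in lung, and had no core motif call. In heart 25.6% of wild-type peaks in the pileup decile of each site were shared. Neither site had a pileup ratio whose interval lay beyond the list-wide median. At 71.3 kb the lung pileup ratio was 0.576 (0.353 to 0.920), or 0.734 (0.450 to 1.17) relative to the list. Its lung fold enrichment went from 19.9 to 8.88, a ratio of 0.446, whereas the brain ratio was 1.26. At 39.2 kb the lung ratio was 0.739 on pileup and 1.37 on fold enrichment.

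The site 98.8 kb 3′ of the Hba-x start, in an intron of Sh3pxd2b, was weak, with 10 reads in wild-type against 17 in mutant brain and 28 and 21 in lung, and had no heart peak. The last sites were wild-type peaks without a mutant counterpart. These were sites 89.0 kb and 75.2 kb 5′ of Hba-x in lung with 14 reads each, a site 52.9 kb 5′ in brain with 16 reads, a site 29.1 kb 5′ in an Nprl3 intron with 19 reads in brain and 31 in lung, and a site 9.65 kb 3′ of the Hba-x start, inside the span, with 17 reads in brain. With the 2 beta-globin sites at 20.04 kb and 60.0 kb, they bring the sites found in wild type only to 7, and none exceeded 35 reads.

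**Figure D2:**
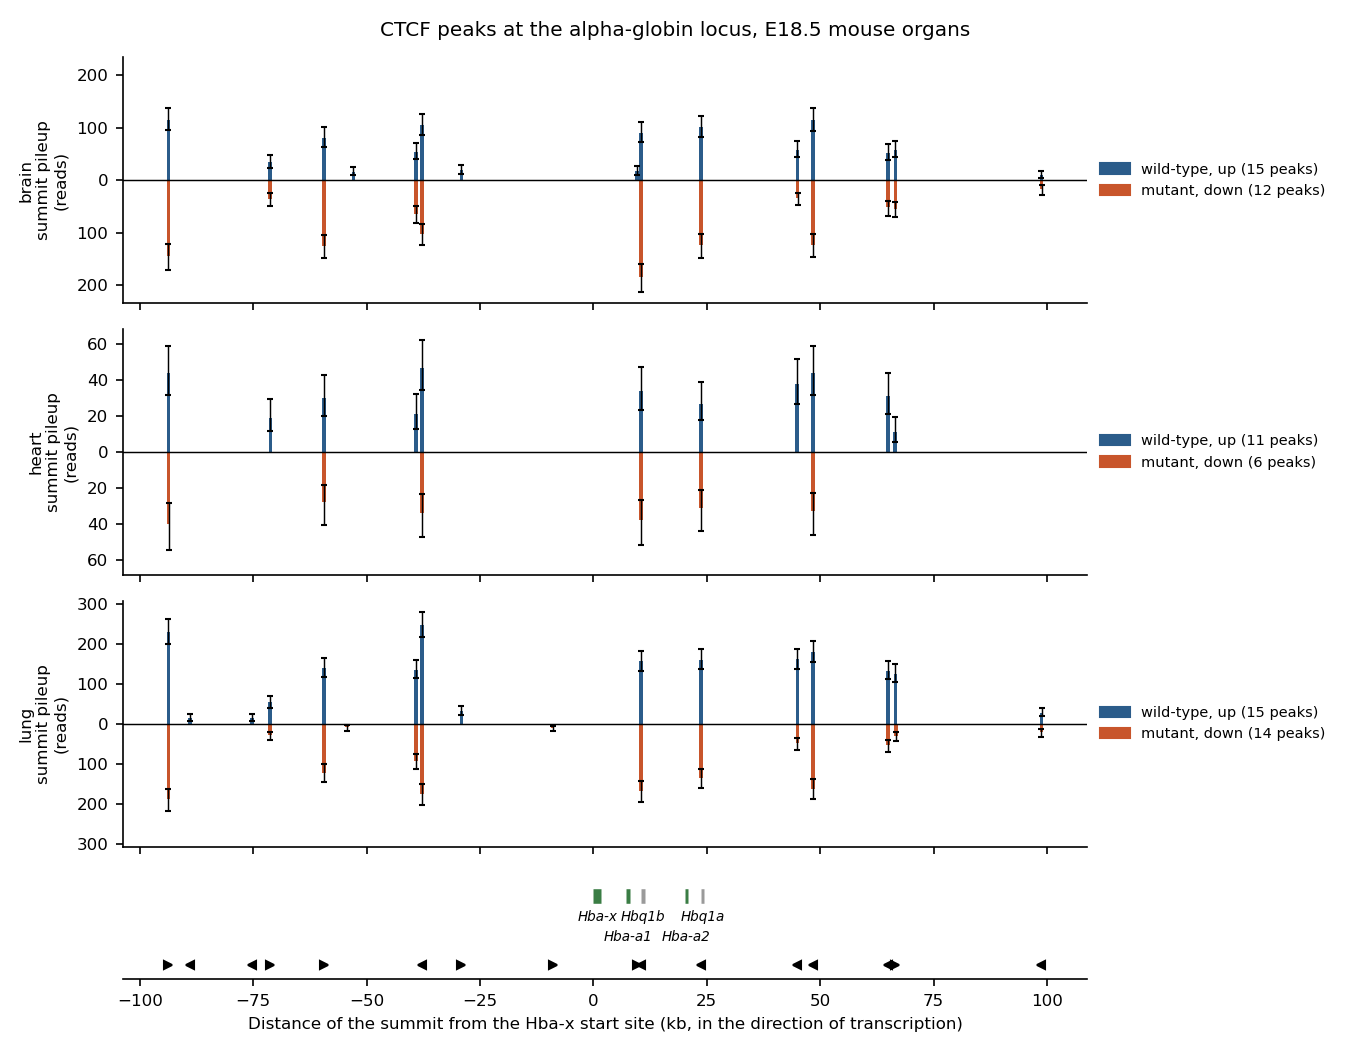
Summit pileup in reads at each alpha-globin peak against distance from the Hba-x start in kb, with wild-type bars up, mutant bars down and 95% exact Poisson intervals. Green boxes are the globin genes named by the rule, grey boxes the theta-globin genes Hbq1b and Hbq1a, and arrowheads give the direction of called core motifs. The mutant bar at 10.5 kb in brain reaches 185 reads against 90 in wild type, and the mutant lung bars at 45.0, 64.9 and 66.6 kb reach 49, 54 and 31.

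Across both loci, 33 pairs of a wild-type and a mutant peak could be compared. Relative to the list-wide median, 25 had an interval that includes 1, 2 lay above it and 6 below it. Both pairs above were the Hbq1b site, in brain and in lung. In brain 1 of 13 pairs lay below, the site 45.0 kb 3′ of the Hba-x start. In lung 5 of 14 lay below, namely the beta-globin sites at 5.45 kb and 89.7 kb and the alpha-globin sites at 45.0, 64.9 and 66.6 kb. None of the 6 heart pairs lay on either side. These intervals were not adjusted for the number of pairs and do not hold the variation between embryos.

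The pairs had median ratios of 0.909 (brain), 0.832 (heart) and 0.751 (lung), beside 0.983, 0.838 and 0.785 over each list. In wild-type lung the local background, which lowers fold enrichment but not pileup, was 4.76 to 10.9 times the genome background at the alpha-globin sites with 125 reads or more and 1 to 1.87 times at the weaker ones. At the beta-globin site at 89.7 kb it was 4.42 times. Local over genome background had a median of 6.97 in the top pileup quintile of that list, against 1.11 to 1.42 in the other 5 lists. The direction differed between the measures in 10 of 14 lung pairs and 2 of 13 brain pairs, all of them lower in the mutant on pileup and higher on fold enrichment, and in none of the 6 heart pairs. The 10 include the 3 alpha-globin pairs below the list-wide median, whose ratio on fold enrichment was 1.18 at 45.0 kb, 2.05 at 64.9 kb and 1.25 at 66.6 kb. On the log2 scale these fold enrichment ratios were 0.24, 1.04 and 0.32, beside a median of 0.62 over all shared lung peaks, so the sites at 45.0 kb and 66.6 kb were below the list on both measures. The beta-globin sites at 5.45 kb and 89.7 kb stayed lower in the mutant, with fold enrichment ratios of 0.390 and 0.582. So did the alpha-globin site 71.3 kb 5′ of Hba-x, at 0.446, though the interval of its pileup ratio held the list-wide median. Over all pairs the median log2 ratio was −0.41 on pileup and 0.75 on fold enrichment in lung, and −0.14 and 0.13 in brain. The part of this background in the lung results was not tested.

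**Figure D3:**
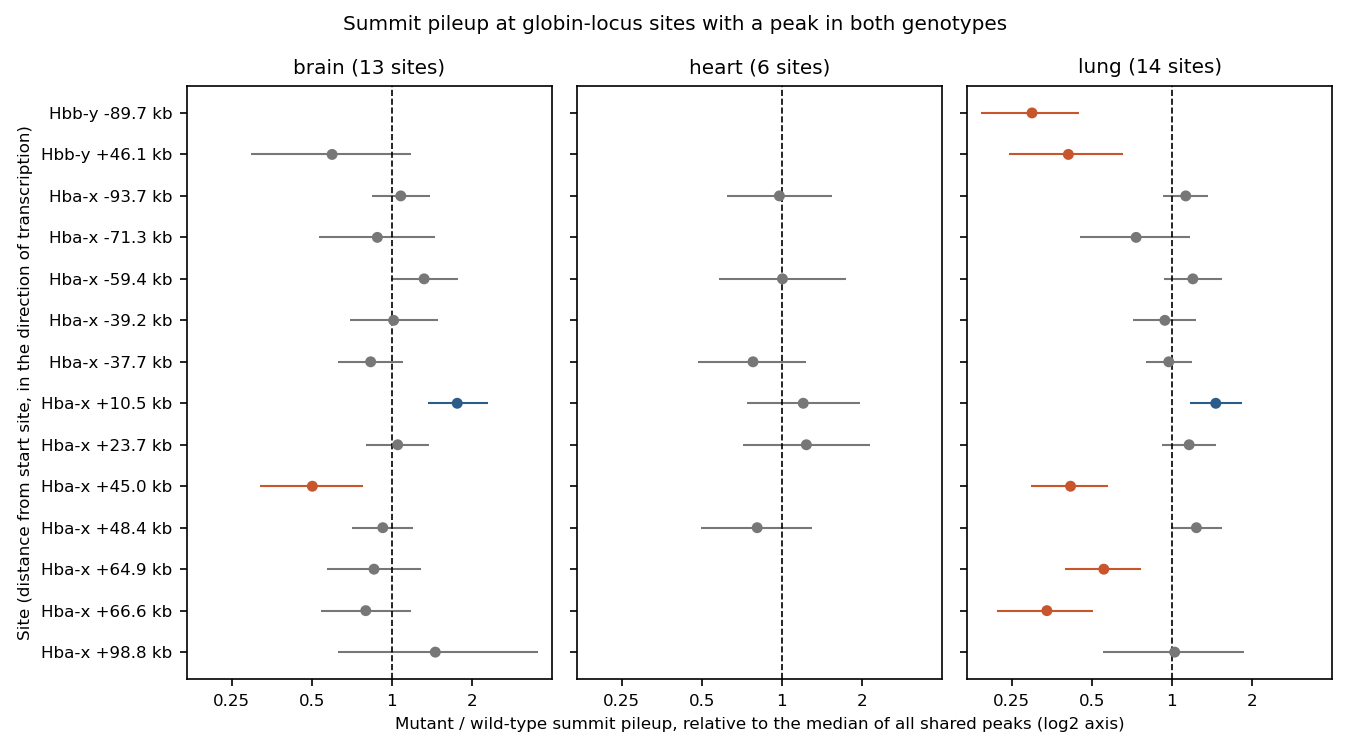
Ratio of scaled summit pileup, mutant over wild type, divided by the list-wide median (dashed line at 1), at every site with a peak in both genotypes of an organ, on a log2 axis with 95% exact conditional binomial intervals. Sites are named by their distance in kb from the Hbb-y or Hba-x start, so the site 5.45 kb 3′ of Hbb-bt stands at 46.1 kb. Points are coloured orange below, blue above and grey where the interval includes the list-wide median. Of 13, 6 and 14 pairs in brain, heart and lung, the Hbq1b site lies above in brain and lung, and 1 brain pair and 5 lung pairs lie below. The share of all shared peaks that lie above or below in this way is not given here. On fold enrichment the lung pairs at 45.0, 64.9 and 66.6 kb were higher in the mutant, by ratios of 1.18, 2.05 and 1.25.

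The core motif was called at 20 of the 23 sites, 4 of 4 beta-globin and 16 of 19 alpha-globin. Over all peaks the share was 85.3% to 95.5% across the lists. The upstream motif, TGCAGTNCC with at most 2 mismatches in the 30 bases before the core, was found at 6 sites, and 3 sites held it in the mirrored window after the core. In the lists it was found beside 22.8% to 28.0% of cores and in the mirrored window of 12.7% to 13.6%. The 6 sites had mixed fates. Those 93.7 kb 5′ and 48.4 kb 3′ of the Hba-x start kept a peak in all 6 lists, the one at 71.3 kb was missing from mutant heart, those 89.0 kb 5′ of Hba-x and 60.0 kb 5′ of Hbb-y were wild-type lung peaks alone, and the one 8.995 kb 5′ of Hba-x was a mutant lung peak alone. A match of letters does not show that the upstream motif was bound.

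Core direction was described for the sites outside the spans. At the alpha-globin locus 5 of the 5′ cores pointed toward the genes and 3 away, and 5 of the 3′ cores pointed toward them and 1 away. Of the 23 summits, 7 lay in introns, all at the alpha-globin locus, 16 were intergenic and none was in an exon or UTR. Among 300-base RefSeq promoters of GRCm38, those listed for Hbb-bt, Hbb-bs, Hbb-y, Hba-x, Hba-a1 and Hba-a2 held no core call and no summit. Core calls were found in 19.3% of 32851 such promoters, and the promoters of Hbq1b and Hbq1a each held one, on the strand opposite to the gene and ending 15 bp before its start.

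Some peaks lay close to the limit of the window. At the beta-globin locus the outermost site inside lay 89.7 kb from the span, and the first peak outside lay 100.3 kb away in wild-type lung, with 17 reads, and 346.8 kb away in the other 5 lists. At the alpha-globin locus the outermost 5′ site lay 93.7 kb away and the first peak outside about 114.0 kb away in all 6 lists, with 38 to 218 reads.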

How the data were processed

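CTCF ChIP-seq of 6 libraries was analysed from the deposited peak lists, and the 6 input libraries were not used here. Per the submitters' processing notes and the study's methods, the authors used Trim Galore for trimming, Bowtie2 for alignment to mm10 and hg38 combined, only unique alignments of high quality, and MACS2 to call peaks in each library on its own. Which input served as control is not given in the sources used here, and no spike-in factor enters a peak list. The deposited fold enrichment is a ratio of summit pileup to local background after adding 1 to each. Significance was deposited as −log10 of p and of q, and the deposited score was not used. Several summits in 1 region counted as 1 peak.

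Pileup and local background were recovered from fold enrichment and p-value in every line, to a tolerance of 0.02 in −log10 p, so the number of reads stacked at a summit is known. Genome-wide read totals were not used here. The lowest pileup listed was 7 to 9 reads in each list, which limits what a missing peak shows. The core motif matrix of 19 columns was built on the 2000 most enriched peaks of wild-type brain and called within 100 bp of a summit at p of 1e-04 or less on either strand. Sequences are from GRCm38 and genes from GENCODE M21 (basic set). Scripts ran under scipy 1.17.1, pandas 2.3.3, numpy 2.4.6, pysam 0.24.0 and Python 3.11.15, and the pileup recovery and motif calls were tested on simulated data. Groups came from the labels, and peak numbers were compared over organs by flipping signs in an exact permutation test (two-sided).

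The globin members and the lists were chosen with earlier results of these data known. Values were given in every list for sites with a peak in at least 4 lists, for the nearest site on either side of each span and for sites inside a span, and sequences for sites in all 6 lists and the nearest flanking sites. The other sites and sequences were added after their values were seen. Alternatives covered the window, list length, q-value, summit lines, overlap, scaling and motif thresholds.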

Additional observations from a re-analysis of the deposited data

How the results depend on the processing

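The lung median log2 ratio over the globin-locus pairs was −0.41 on scaled pileup, 0.75 on fold enrichment, which turns its direction, and −0.063 relative to the list-wide median. The brain median also changed sign, from −0.14 to 0.13. Over all shared lung peaks the medians were −0.35 on pileup and 0.62 on fold enrichment, and the cause was not tested. The upstream motif count of 6 sites became 2 with at most 1 mismatch and 3 in the mirrored window. The mean difference in peak number ranged from −1.5 to −2 (beta-globin) and from −2 to −4 (alpha-globin) when an organ was left out. It was −1 and −2 within 50 kb of the spans, where lung held 9 alpha-globin peaks in each genotype, and −2 and −3.67 within 200 kb. With both lists of an organ at equal length each mean was −1.33 and the overlapped share rose from 50% to 75% in heart, with 13 alpha-globin peaks in wild-type and 14 in mutant lung and 0 beta-globin peaks in wild-type heart. The share over all heart peaks at equal length is not given here. No paired analysis was possible because each organ and genotype has 1 library without a replicate number, other than the pairing by organ on which the test of peak number rests. Of 107 alternatives, 95 left the value on its side of the test, within its counting interval or within 1.5 times a count, 11 moved it and 1, the lung median, reversed it. The brain median, whose interval held the value on fold enrichment, is counted among the 95. Peaks of fewer than 7 reads were not listed in any library, so a missing peak does not show that binding was absent.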

Other observations

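The cores of the 3 alpha-globin sites whose lung pileup ratio lay below the list-wide median beyond counting error, at 45.0, 64.9 and 66.6 kb 3′ of the Hba-x start, share the letters CCTGCAG in columns 4 to 10. Their fold enrichment was higher in mutant lung, by ratios of 1.18, 2.05 and 1.25. The shared letters were noticed after the data were seen. Elsewhere in the genome, with the globin sites left out, wild-type peaks with these letters were overlapped by a mutant peak in 86.4% of 529 cases in brain (95% exact binomial interval 83.2% to 89.2%), 40.7% of 297 in heart (35.1% to 46.6%) and 70.1% of 642 in lung (66.4% to 73.6%). Other wild-type peaks with a core were overlapped in 83.3%, 53.4% and 71.2%. The median pileup with and without the letters was 36 and 44 reads (brain), 28 and 30 (heart) or 59 and 66 (lung). The interval lay below the share of the other peaks in heart alone, and the median mutant over wild-type ratio at shared peaks with and without the letters was 0.969 and 0.977 (brain), 0.863 and 0.838 (heart) or 0.719 and 0.782 (lung). The part of the lower pileup in these values was not tested.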
